A study of Homo sapiens with 6 samples.

Results

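The 10 genes described here are the globin genes, a globin chaperone and a repressor of the fetal globin genes in K562 cells, a human line established from chronic myeloid leukemia that keeps traits of red cell precursors. They were chosen by name, as HBA1, HBA2, HBB, HBD, HBBP1, HBG1, HBM, AHSP, AC015691.13 and BCL11A, out of 17066 gene symbols listed in the 3 deposited tables. Total RNA was sequenced from 6 samples in 3 groups of 2 replicates. All 3 lines carried a PiggyBac transposon with a cassette that doxycycline switches on, and all, the control included, received doxycycline at 200 ng/ml for 48 h. The CTR line held an empty vector, the CEBPA line expressed wild-type C/EBPα, a transcription factor of granulocyte differentiation, and the P30 line expressed its short p30 isoform, which lacks the amino-terminal part of the protein. By the legend of the study's Western blot, the CEBPA line made both the full-length protein and p30 after 48 h of doxycycline. CEBPA vs P30 is thus not a comparison of the full-length protein alone with p30. Whether a line was 1 clone or a pool was not given in the sources used here, and the transgenes themselves were not analysed here. The study asked which transcripts differ between the 2 isoforms, and the comparisons below ask it of the globin genes.

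Hemoglobin is a tetramer of alpha-type chains, encoded at the alpha-globin locus on chromosome 16, and beta-type chains, encoded at the beta-globin locus on chromosome 11. The beta-type genes are used in turn during development, with HBG1 among the fetal genes and HBB and HBD as the adult genes. BCL11A is a zinc finger protein best known for silencing the fetal genes in adult red cells, and AHSP binds free alpha chains until they meet a partner. K562 cells are widely used as a model of embryonic and fetal globin expression.

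Levels are given in FPKM, the count of sequenced fragments scaled by transcript length and by library size, so that genes of different length can be compared. The authors deposited 1 FPKM per gene and group with the 2 replicates pooled, so that no value below carries a spread and no difference was tested here. The study itself tested each pair of groups with Cuffdiff, and those test results are not given below. Differences between groups were taken on the log2(FPKM + 1) scale, and a gene was counted as higher or lower when they reached 2-fold, among genes over 1 FPKM in at least 1 group of the pair. Both comparisons with CTR share the same CTR libraries. The medians of all genes on the log2 scale were -0.01 for CEBPA vs CTR, 0.02 for P30 vs CTR and -0.04 for CEBPA vs P30, with scaled median absolute deviations of 0.73, 0.20 and 0.67.

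HBG1, AC015691.13, HBM, HBA2 and AHSP had lower levels in both lines with a transgene than in CTR, HBA1 and HBD in CEBPA but not in P30, and HBBP1, HBB and BCL11A had higher levels in CEBPA. Against CTR, 6 of the 10 genes differed by at least 2-fold in CEBPA, where 21.0% of the 13673 genes compared did. The 4 lower ones were HBG1, AC015691.13, HBA1 and AHSP, and 6.92% of all genes were lower by as much. HBB and BCL11A were at least 2-fold higher, where 14.0% of all genes were, and both exceeded 1 FPKM in CEBPA and in neither of the other groups. In P30 the 8 genes over 1 FPKM included 4 that differed from CTR by at least 2-fold, where 1.63% of the 12395 genes compared did. The 3 lower ones were HBG1, AC015691.13 and AHSP, and 0.613% of all genes were lower by as much. HBD was the gene that was at least 2-fold higher in P30, where 1.02% of all genes were. Between CEBPA and P30, 4 of the 10 differed by at least 2-fold, where 18.9% of 13569 genes did. HBA1 and HBD were lower in CEBPA, against 5.79% of all genes, and HBB and BCL11A higher, against 13.1%. The medians of the members were -0.76, -0.50 and -0.16 on the log2 scale in these 3 comparisons.

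**Figure D1:**
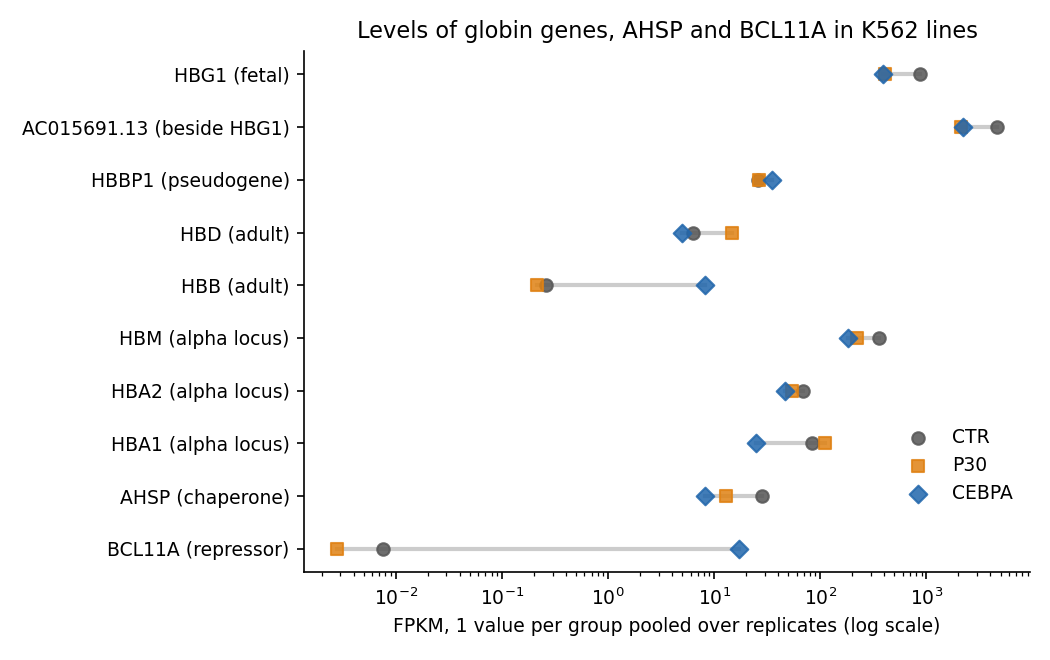
FPKM of each of the 10 genes on a log axis, with 1 point per group for CTR (circle), P30 (square) and CEBPA (diamond), pooled over replicates, and a grey line over the range. HBG1, AC015691.13 and AHSP were highest in CTR, while HBB and BCL11A lay above 1 FPKM in CEBPA and in neither of the other groups.

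HBG1, the gene of the fetal A-gamma chain, lies at chr11:5269499-5271087 on the minus strand (GRCh37). Its level was 872 FPKM in CTR, 410 FPKM in P30 and 389 FPKM in CEBPA. It was thus lower in both lines, with log2 differences from CTR of -1.09 in P30 and -1.16 in CEBPA, and about level between them, with a CEBPA vs P30 difference of -0.08. That last sign turned, to 0.13, when the changes were centred on genes over 100 FPKM. By FPKM, HBG1 ranked number 107 of the listed genes for CTR, 189 for P30 and 193 for CEBPA. In CEBPA vs CTR, 637 of 13673 genes (4.66%) were as low, and 61 of 12395 genes (0.492%) were as low in the P30 comparison, where the spread of all genes was narrower.

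AC015691.13, an RNA that the study's gene lists class as antisense, was the most abundant of the 10. Its level was 4608 FPKM in CTR, 2099 FPKM in P30 and 2203 FPKM in CEBPA, which put it at rank 7 of all listed genes in CTR and at ranks 46 and 24 in P30 and CEBPA. It had no entry in the annotation used here, but the tables list genes by position, and 25 of the 30 genes listed around it had an entry, each on the minus strand of chromosome 11. By that order AC015691.13 sits between HBG1 and the olfactory receptor pseudogene OR51AB1P. By lower coordinate, HBG2 (chr11:5274418-5526835) and HBE1 (chr11:5289575-5526882), both on the minus strand, fall in the same gap. Neither had a value here, and whether their reads are part of the AC015691.13 level was not tested. The changes of AC015691.13 were close to those of HBG1, at -1.13 on the log2 scale in P30 vs CTR, where 49 of 12395 genes (0.395%) fell as far, and -1.06 in CEBPA vs CTR. The ratio of AC015691.13 to HBG1 was 5.29 in CTR, 5.11 in P30 and 5.66 in CEBPA. How the reads of neighbouring or overlapping transcripts were divided between them was not given in the sources used here, so the levels of the pair are uncertain. With the pair summed, the log2 differences from CTR were -1.13 for P30 and -1.08 for CEBPA.

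The fetal level is also uncertain for a reason of sequence. The coding sequences of HBG1 and its duplicate HBG2 differed at 2 of 444 positions, so that short reads can often not be assigned to one of them. HBG2 was looked for and had no value to compare here, nor had the embryonic genes HBE1 and HBZ.

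The adult genes parted from each other. HBD, the gene of the minor adult delta chain (chr11:5253908-5264887, minus strand, a model that covers HBBP1), was listed at 6.34 FPKM in CTR, 14.6 FPKM in P30 and 5.01 FPKM in CEBPA. It was higher in P30 than in CTR by 1.09 on the log2 scale, a rise that 105 of 12395 genes (0.847%) matched, and differed by -0.29 in CEBPA vs CTR. Between the lines with a transgene HBD fell by 1.38 from P30 to CEBPA. HBB, the gene of the main adult beta chain (chr11:5246694-5250625, minus strand), was listed at 0.263 FPKM in CTR, 0.213 FPKM in P30 and 8.16 FPKM in CEBPA. It was thus near 0 in the 2 groups where HBD was highest, and above HBD in CEBPA alone. The CEBPA vs CTR difference of HBB was 2.86 on the log2 scale, a size that 267 of 13673 genes (1.95%) reached, and it ranged from 1.32 with 5 added to the FPKM to 4.51 with 0.1 added. HBB was not in the table of P30 vs CTR, and its value for that pair comes from the other tables. The coding sequences of HBD and HBB differed at 32 of 444 positions (92.8% identity), against 76.1% identity between HBG1 and either of them.

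HBBP1, a pseudogene between the fetal and adult genes (chr11:5263350-5264767, minus strand), went its own way. It was listed at 25.9 FPKM in CTR, 26.6 FPKM in P30 and 34.9 FPKM in CEBPA, a difference of 0.04 on the log2 scale in P30 vs CTR and 0.41 in CEBPA vs CTR. The ratio of HBG1 to HBBP1 therefore went from 33.6 in CTR to 15.4 in P30 and 11.2 in CEBPA. Among the 3 beta-type coding genes with a value, HBG1 still held 99.2% of the sum in CTR, 96.5% in P30 and 96.7% in CEBPA. The adult share was 0.751% in CTR, 3.49% in P30 and 3.27% in CEBPA. HBD made up most of that share in P30, and HBB the larger portion of it in CEBPA.

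**Figure D2:**
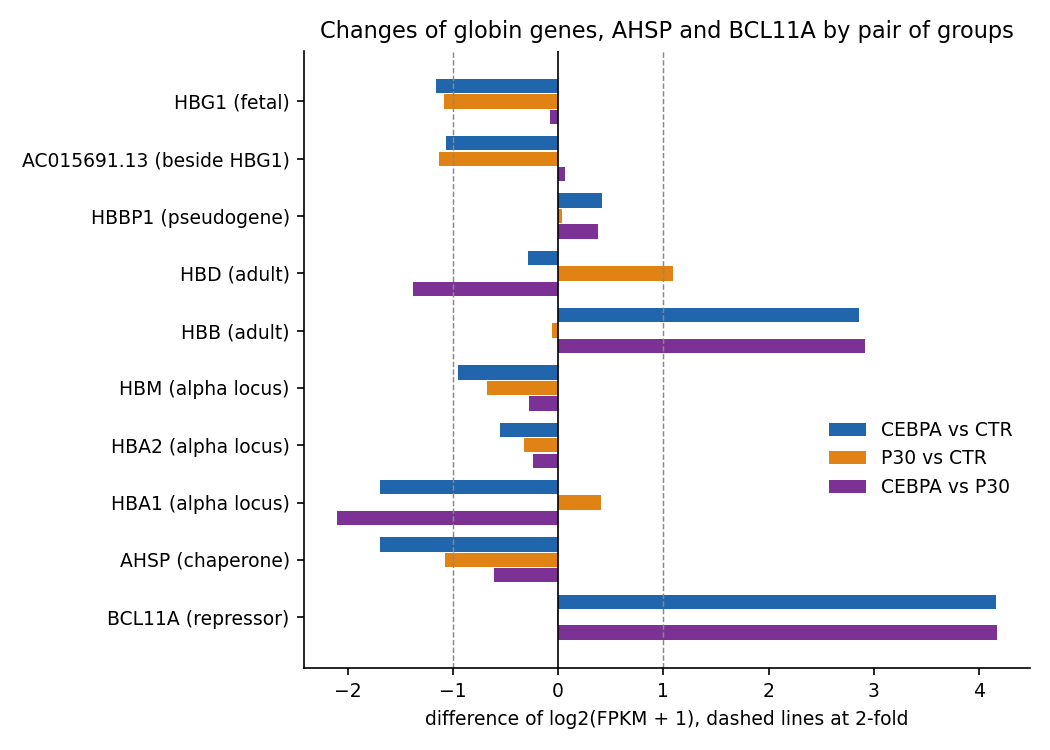
Difference of log2(FPKM + 1) of each gene in CEBPA vs CTR, P30 vs CTR and CEBPA vs P30, as 1 bar per pair of groups without error bars, with dashed lines at 2-fold. HBG1, AC015691.13 and AHSP passed the lower line in both comparisons with CTR. HBA1 and HBD were below 0 in CEBPA vs CTR, HBD by only -0.29, and above 0 in P30 vs CTR. HBB and BCL11A were above the upper line in CEBPA vs CTR and just below 0 in P30 vs CTR.

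The alpha-locus genes were lower in CEBPA, and HBA1 stood apart in P30. HBM, the gene of an alpha-type mu chain (chr16:203891-216763, plus strand), was listed at 357 FPKM in CTR, 223 FPKM in P30 and 183 FPKM in CEBPA. Its differences from CTR were -0.68 in P30 and -0.96 in CEBPA on the log2 scale, short of 2-fold in both. HBA2 (chr16:222875-223709, plus strand) was listed at 68.3 FPKM in CTR, 54.5 FPKM in P30 and 46.1 FPKM in CEBPA. It followed the order of HBM with smaller differences, of -0.32 in P30 and -0.56 in CEBPA. HBA1 (chr16:226679-227521, plus strand) was listed at 83.1 FPKM in CTR, 110.3 FPKM in P30 and 24.97 FPKM in CEBPA. It was thus highest in P30 and lowest in CEBPA, with log2 differences from CTR of 0.40 in P30 and -1.70 in CEBPA, and of -2.10 for CEBPA vs P30. Against CTR, 180 of 13673 genes (1.32%) were as low in CEBPA, and against P30, 50 of 13569 (0.368%).

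HBA1 and HBA2 encode the same alpha chain, and their coding sequences differed at 0 of 429 positions and their transcripts at 20. The ratio of HBA1 to HBA2 was 1.22 in CTR, 2.02 in P30 and 0.541 in CEBPA, but reads shared by the pair can move between them. The sum of the pair avoids this and was 151 FPKM in CTR, 165 FPKM in P30 and 71.1 FPKM in CEBPA. As a sum, alpha globin differed from CTR by -1.08 on the log2 scale in CEBPA and by 0.12 in P30, so that the P30 values of HBA1 and HBA2 had opposite signs and their sum was close to CTR. HBQ1, the theta globin gene at the end of the locus, was listed at 62.3 FPKM in CTR, 46.1 FPKM in P30 and 16.4 FPKM in CEBPA. The 3 alpha-locus members together held 508 FPKM in CTR, 387 FPKM in P30 and 255 FPKM in CEBPA, which is a difference of -0.39 in P30 and -0.99 in CEBPA on the log2 scale. The HBM value exceeded the sum of HBA1 and HBA2 in every group, by a ratio of 2.36 in CTR, 1.35 in P30 and 2.58 in CEBPA. The HBM model covers the pseudogene HBZP1 and overlaps HBZ, which had no value here. Whether reads of HBZ are part of the HBM level was not tested.

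The balance of the 2 loci was then compared over the members alone, since HBG2, HBE1 and HBZ had no value. The 5 beta-locus members summed to 5513 FPKM in CTR, 2551 FPKM in P30 and 2641 FPKM in CEBPA, most of it AC015691.13. The ratio of alpha to beta locus was 0.0922 in CTR, 0.152 in P30 and 0.0964 in CEBPA. Without AC015691.13 and the pseudogene HBBP1 it was 0.578 in CTR, 0.911 in P30 and 0.632 in CEBPA. By either count the ratio was highest in P30, where the beta locus was low and the alpha locus was closer to CTR. The 8 members at these loci took 0.913% of all listed FPKM for CTR, 0.440% for P30 and 0.475% for CEBPA.

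**Figure D3:**
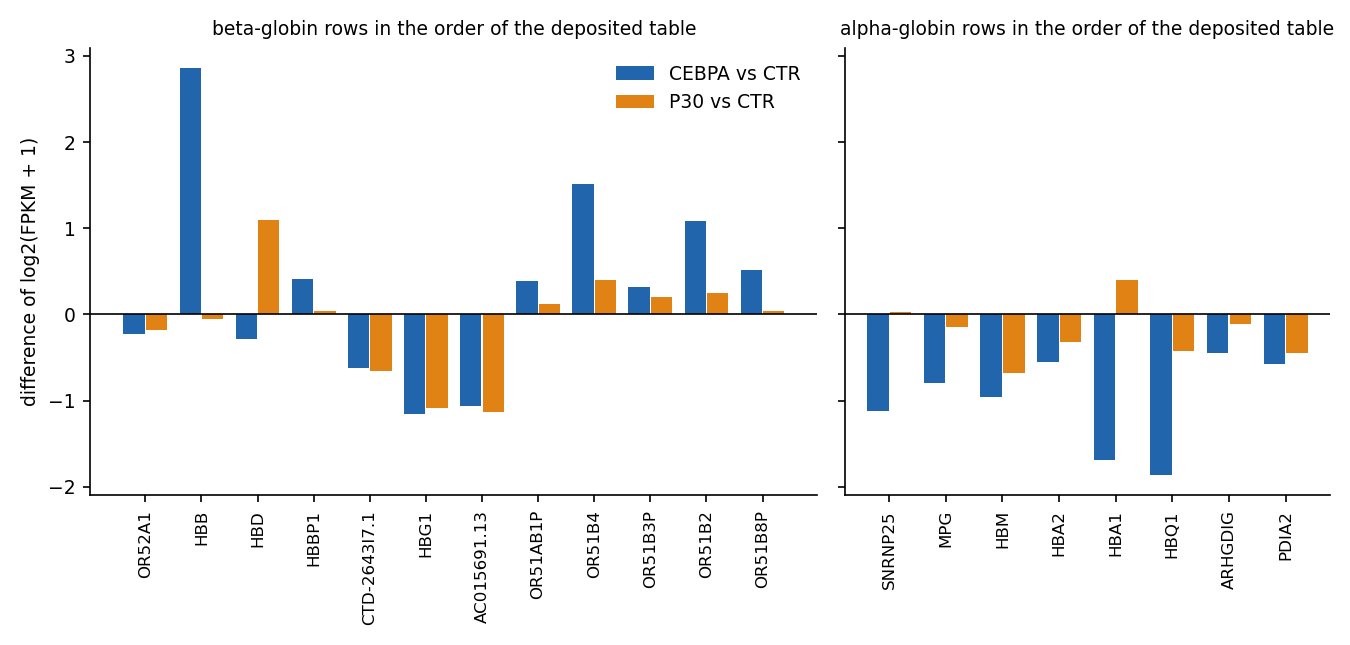
Difference of log2(FPKM + 1) in CEBPA vs CTR and P30 vs CTR for genes in the order in which the deposited table lists them at the beta-globin (left) and alpha-globin (right) loci, 1 bar per gene and pair. At the beta locus HBG1, AC015691.13, CTD-2643I7.1 and OR52A1 were below 0 in both pairs, and HBD was below 0 in CEBPA alone. HBBP1 and OR51AB1P, on either side of the run from CTD-2643I7.1 to AC015691.13, were above 0 in CEBPA. At the alpha locus all CEBPA bars were below 0.

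AHSP, the chaperone (chr16:31539221-31540124, plus strand), was ordered as the alpha locus was in CEBPA, but not as alpha globin was in P30. Its level was 28.5 FPKM in CTR, 13.0 FPKM in P30 and 8.13 FPKM in CEBPA. It differed from CTR by -1.08 on the log2 scale in P30 and by -1.69 in CEBPA, and 62 of 12395 genes (0.500%) and 184 of 13673 genes (1.35%) were as low. The ratio of AHSP to the summed alpha globin genes was 0.188 in CTR, 0.0786 in P30 and 0.114 in CEBPA. The P30 cells therefore had the lowest chaperone transcript per alpha globin transcript of the 3 groups.

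BCL11A (chr2:60677655-60781602, minus strand) was listed at 0.00750 FPKM in CTR, 0.00281 FPKM in P30 and 17.0 FPKM in CEBPA. It was near 0 in CTR and P30 and at a moderate level in CEBPA, the same division that HBB showed. The CEBPA vs CTR difference was 4.16 on the log2 scale, and 105 of 13673 genes (0.768%) reached that size. The value depends on the amount added to the FPKM and was 2.14 with 5 and 7.32 with 0.1. BCL11A was not in the table of P30 vs CTR. Any part of BCL11A in the level of HBG1 was not tested.

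**Figure D4:**
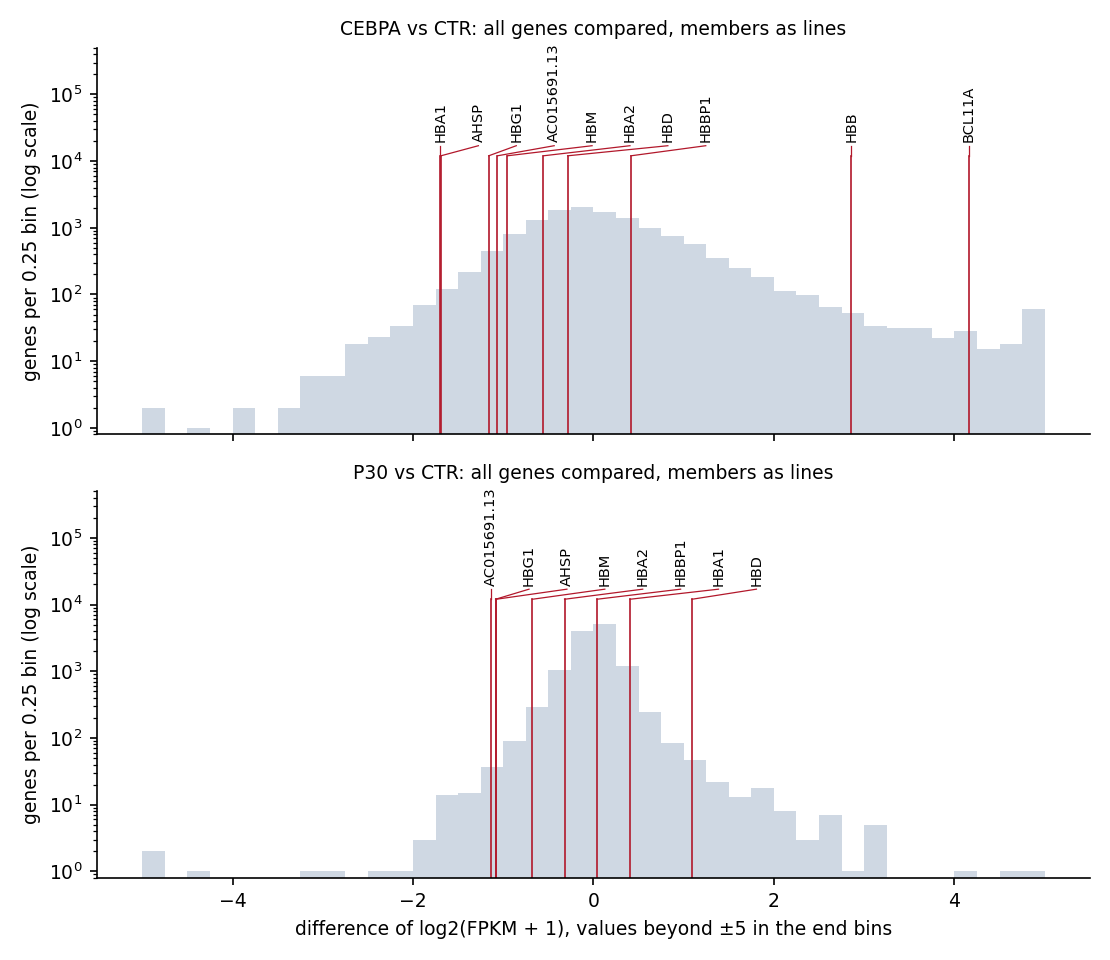
Number of genes per bin of 0.25 of the difference of log2(FPKM + 1) on a log count axis, over all genes compared in CEBPA vs CTR (top, 13673 genes) and P30 vs CTR (bottom, 12395 genes), with the listed members over 1 FPKM as lines. The spread of all genes was wider in CEBPA, with 4.66% of genes as low as HBG1 at -1.16 there and 0.492% as low as HBG1 at -1.09 in P30.

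Promoter sequence from RefSeq (GRCh38.p14) was at hand for 3 of the 10 genes, HBD, HBM and BCL11A. All 3 are shown, whatever their levels. Each took a different course: HBD was higher in P30, HBM was highest in CTR, and BCL11A was near 0 outside CEBPA. Each line gives the 250 bases before the start, 5′ to 3′ on the gene's own strand, with matches to the motifs searched in capitals. The motifs were the CCAAT box, the CACCC core that Krüppel-like factors bind, the GATA motifs in the forms AGATAA and also TGATAA, the TGACCA motif known for BCL11A, the TATAAA box and the C/EBP-type motif TTGCNNAA, on either strand, and matches on the minus strand appear as their reverse complement.
HBD, chr11:5234484-5234733, minus strand: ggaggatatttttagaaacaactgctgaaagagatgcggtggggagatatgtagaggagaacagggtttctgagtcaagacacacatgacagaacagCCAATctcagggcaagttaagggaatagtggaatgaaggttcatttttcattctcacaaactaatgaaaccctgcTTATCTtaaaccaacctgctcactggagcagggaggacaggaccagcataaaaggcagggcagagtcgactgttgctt
HBM, chr16:165728-165977, plus strand: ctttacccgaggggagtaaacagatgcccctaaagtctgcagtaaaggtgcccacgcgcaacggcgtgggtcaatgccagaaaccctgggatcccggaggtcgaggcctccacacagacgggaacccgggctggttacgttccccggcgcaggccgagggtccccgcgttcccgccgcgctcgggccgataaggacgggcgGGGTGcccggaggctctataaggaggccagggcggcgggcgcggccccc
BCL11A, chr2:60553925-60554174, minus strand, the outermost of 5 starts: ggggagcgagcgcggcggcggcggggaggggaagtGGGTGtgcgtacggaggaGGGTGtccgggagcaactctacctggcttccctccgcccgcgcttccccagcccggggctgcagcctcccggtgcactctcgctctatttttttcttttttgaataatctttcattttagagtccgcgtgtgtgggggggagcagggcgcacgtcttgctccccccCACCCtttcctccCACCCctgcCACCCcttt

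HBD held CCAAT at -153 to -149 and AGATAA on the minus strand at -78 to -73, motifs that 33.0% and 9.37% of 27305 promoters of this length held. HBM held CACCC on the minus strand at -49 to -45, and BCL11A held it 5 times, at -215 to -211 and -197 to -193 on the minus strand and at -31 to -27, -18 to -14 and -9 to -5 on the plus strand. CACCC was present in 53.7% of all promoters. The other motifs had no match in these 3 windows. TGACCA was found in 9.50% of all promoters, TTGCNNAA in 9.13%, TGATAA in 6.89% and TATAAA in 11.1%. The GC content was 45.2% for HBD, 69.2% for HBM and 64.8% for BCL11A, against a median of 58%. A match is a description of letters, and which start each line used cannot be read from FPKM per gene.

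The regulators of globin genes were compared next. Of 13 activators listed, 12 had a value, and 8 of them were at least 2-fold lower and 0 higher in CEBPA vs CTR, where 6.92% and 14.0% of all genes were, with a median of -1.41 on the log2 scale. The largest falls were those of KLF1, an erythroid factor that binds CACCC, from 160.0 FPKM in CTR to 42.3 FPKM in CEBPA, and LYL1, from 103.4 FPKM to 27.8 FPKM. GATA1 had the next largest, from 184.6 FPKM to 53.1 FPKM. At the other end were RUNX1, with 0.86, and NFIA, with 0.79 on the log2 scale. For P30 vs CTR the same list had a median of 0.06, and 0 of 12 were lower and 1 higher, where 0.613% and 1.02% of all genes were. That gene was RUNX1, at 17.9 FPKM in CTR and 47.1 FPKM in P30, a difference of 1.35. KLF1 stood at 114.9 FPKM in P30, a difference of -0.47 from CTR, and GATA1 at 192.9 FPKM, a difference of 0.06. The part of the regulators in the globin changes was not tested.

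Of 25 listed repressors of fetal or embryonic globin genes, 24 had a value, and in CEBPA vs CTR 4 were at least 2-fold higher and 1 lower, with a median of -0.28. These counts are near what the shares of all genes, 14.0% and 6.92%, give for a list of this size. BCL11A itself is 1 of the 4. The next was SOX6, a partner of BCL11A, which was listed at 1.74 FPKM in CTR, 1.73 FPKM in P30 and 7.51 FPKM in CEBPA, a CEBPA difference of 1.64 on the log2 scale. PRMT5, an arginine methyltransferase, and NR2C2, an orphan nuclear receptor, were the other two. The lowest were GATA2, at -1.20, and EIF2AK1, the heme-regulated kinase of translation, at -0.90. The list's median in P30 vs CTR was 0.11. Against CTR, 1 of 23 was at least 2-fold higher in P30, where 1.02% of all genes were. This was MYB, singled out after its value was seen, with 40.4 FPKM in CTR, 83.9 FPKM in P30 and 28.9 FPKM in CEBPA. Of the 5 heterochronic regulators, which time the switch from fetal to adult programs, 4 had a value and 2 exceeded 1 FPKM. LIN28B was at 12.8 FPKM in CTR, 19.05 FPKM in P30 and 42.6 FPKM in CEBPA, and IGF2BP3 differed by -0.46 on the log2 scale in CEBPA vs CTR.

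Heme is the group that globin chains carry. Of 9 heme synthesis genes with a value, 5 were at least 2-fold lower in CEBPA vs CTR and 1 higher, where 6.92% and 14.0% of all genes were, with a median of -1.06 on the log2 scale. ALAS2, the erythroid enzyme of the first step, was listed at 149.0 FPKM in CTR, 44.7 FPKM in P30 and 20.9 FPKM in CEBPA. PPOX differed by -2.55 on the log2 scale in CEBPA vs CTR. ALAS1, the form of the first enzyme used in other tissues, took the opposite course, with 16.3 FPKM in CTR, 20.9 FPKM in P30 and 68.0 FPKM in CEBPA, and SLC25A38 differed by -0.05. The 1 of 9 that was at least 2-fold lower in P30 vs CTR, where 0.613% of all genes were, was ALAS2, at -1.71. The list's median in P30 vs CTR was -0.34. Of the 10 genes listed for alpha-globin mRNA and protein stability, 8 had a value, and AHSP was the 1 that was at least 2-fold lower in either comparison with CTR. Of all genes, 6.92% were lower by as much in CEBPA and 0.613% in P30. PRDX2, a peroxidase abundant in red cells, and ULK1, a kinase of autophagy, had the highest differences, of 0.39 and 0.25 on the log2 scale in CEBPA vs CTR.

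**Figure D5:**
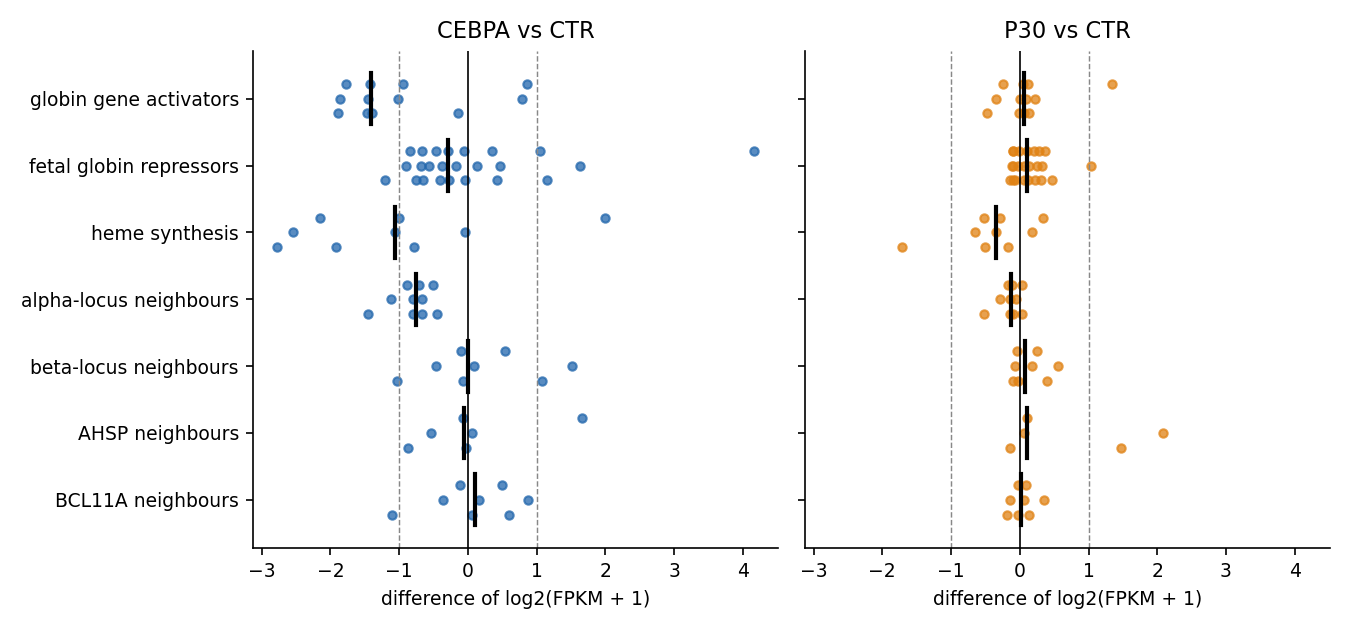
Difference of log2(FPKM + 1) of each gene over 1 FPKM in 7 gene lists, in CEBPA vs CTR (left) and P30 vs CTR (right), with 1 point per gene, a black bar at the list's median and dashed lines at 2-fold. The medians of the activators and of heme synthesis were -1.41 and -1.06 in CEBPA vs CTR, and 0.06 and -0.34 in P30 vs CTR.

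The genes around each member were compared in the same way. At the alpha locus, 10 of 10 neighbours over 1 FPKM were lower in CEBPA vs CTR. Their median was -0.76 on the log2 scale, against -0.01 for all genes. Of the 10, 2 were at least 2-fold lower, where 6.92% of all genes were. NPRL3, whose introns hold the main enhancers of the alpha globin genes, was listed at 58.4 FPKM in CTR, 47.5 FPKM in P30 and 20.8 FPKM in CEBPA, and SNRNP25 differed by -1.12 in CEBPA vs CTR. The same neighbours had a median of -0.13 in P30 vs CTR, and 0 reached 2-fold, where 1.63% of all genes did. HBM at -0.96 and HBA2 at -0.56 lay within the range of these neighbours in CEBPA, as did the sum of HBA1 and HBA2 at -1.08. HBQ1 at -1.87 lay below it, and so did HBA1 taken alone at -1.70, a value that rests on how reads were split between HBA1 and HBA2.

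At the beta locus the 8 neighbours over 1 FPKM had a median of 0.01 in CEBPA vs CTR, with 2 higher and 1 lower by 2-fold, counts too small to set apart from the 14.0% and 6.92% of all genes. The olfactory receptor gene OR51B4, which lies beyond AC015691.13, was at 17.6 FPKM in CTR, 23.5 FPKM in P30 and 52.2 FPKM in CEBPA. OR51B2 followed it with a difference of 1.08 on the log2 scale, and ILK and TRIM68, farther away, differed by -1.03 and -0.47. None of the 8 reached 2-fold in P30 vs CTR, where 1.63% of all genes did. Around AHSP, ITGAX was higher in CEBPA vs CTR by 1.66 on the log2 scale and PYCARD differed by -0.87, with 1 of 6 higher and 0 lower by 2-fold. Of all genes, 14.0% were higher and 6.92% lower by as much. In P30 vs CTR 2 of 5 AHSP neighbours were at least 2-fold higher, where 1.02% of all genes were. These 2 were the integrin gene ITGAM, at 2.59 FPKM in CTR and 14.3 FPKM in P30, and PYCARD, at 5.68 FPKM and 17.6 FPKM. AHSP was thus lower in P30 while these 2 genes of the same region were higher. Around BCL11A, 0 of 8 genes were higher and 1 was lower by 2-fold in CEBPA vs CTR, where 14.0% and 6.92% of all genes were. PUS10 differed by 0.88 and FANCL by -1.11 on the log2 scale, against 4.16 for BCL11A.

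Some genes had changes close to those of a member over the 3 group values. Among 8327 genes over 10 FPKM in at least 1 group, likeness was measured as the distance in the plane of the CEBPA vs CTR and P30 vs CTR differences. AC015691.13 was nearest to HBG1, at a distance of 0.109 on the log2 scale, followed by MYADML2 at 0.160 and MAGI1 at 0.201. For HBA1 the nearest were ATP2A3, ADAMTS14 and SLC29A1, at 0.114 to 0.153. That these are highest in P30 and lowest in CEBPA follows from choosing them for likeness to HBA1. The HBA1 values rest on how reads were split between HBA1 and HBA2. For AHSP the nearest were RHAG, the Rh-associated glycoprotein of the red cell membrane, S100A4 and GRAP2, at 0.109 to 0.154. RHAG was listed at 437.0 FPKM in CTR, 217.2 FPKM in P30 and 127.3 FPKM in CEBPA.

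Markers of blood cell types also differed between the groups. Of 14 erythroid markers 12 had a value, and they summed to 1891 FPKM in CTR, 1383 FPKM in P30 and 592 FPKM in CEBPA. Of the 12, 11 were at least 2-fold lower than CTR in CEBPA and 4 in P30, where 6.92% and 0.613% of all genes were. Of 16 granulocyte markers 10 had a value, and they summed to 11.2 FPKM in CTR, 35.9 FPKM in P30 and 10304 FPKM in CEBPA, with S100A9 the highest. The 5 monocyte markers with a value summed to 46.7 FPKM in CTR, 50.6 FPKM in P30 and 1786 FPKM in CEBPA, mostly from LYZ, and the 5 megakaryocyte markers to 13.5 FPKM, 14.2 FPKM and 64.9 FPKM. PPBP alone held 51.1 FPKM of the last sum, while ITGA2B was at 12.6 FPKM in CTR and 11.5 FPKM in CEBPA. GP9 was at 0 in CTR and PF4 at 0 in P30. The 4 lymphocyte markers summed to 13.7 FPKM, 14.97 FPKM and 7.52 FPKM. KLF1, GATA1 and ALAS2 stand in both the erythroid list and a list above. The part of these shifts in the globin changes was not tested, and fewer erythroid cells and less globin RNA per cell cannot be told apart in bulk RNA.

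The scaling of the groups bears on the CEBPA values. Genes over 100 FPKM were shifted against CTR, and centring on them moved every CEBPA vs CTR change up by 0.21 on the log2 scale. HBG1 was then at -0.95 and AC015691.13 at -0.85, no longer 2-fold lower, while HBA1 stayed at -1.48 and AHSP at -1.48. The split of all genes was then 2543 higher against 560 lower, compared with 1921 against 946 as deposited, and for CEBPA vs P30 it was 2322 against 411, compared with 1780 against 785. With each group rescaled to the same sum of FPKM, HBG1 stayed 2-fold lower at -1.05 and AC015691.13 was at -0.95. The P30 vs CTR changes of HBG1, AC015691.13 and AHSP stayed at least 2-fold lower under each of these scalings, and AHSP was at -0.90 with 5 added to the FPKM.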

How the data were processed

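RNA-seq of 6 samples was analysed, 2 replicates in each of 3 groups that were assigned from the sample titles. Reads were mapped to hg19 with TopHat2 (version 2.0 in the submitters' processing notes, with CASAVA 1.4), assembled with Cufflinks and quantified with Cuffdiff, and the authors deposited FPKM with replicates pooled, as 1 value per gene and group in 3 tables. Replicates came from 2 sequencing runs, and depth per sample was not given in the files. 0 columns of values were left out. A pseudocount of 1 was added before log2 differences were taken. The members and lists were chosen with earlier results of these data known. Every member was named, and of each list the 2 highest and 2 lowest genes in CEBPA vs CTR, with GATA1, PRMT5, NR2C2, ITGAM and MYB named besides for their values. 1 gene that this rule would name is not reported here. The 3 genes of nearest pattern were named for HBG1, HBA1 and AHSP. Positions came from Gencode on GRCh37, and promoters from RefSeq. Pseudocounts of 0.1 and 5, 4 other scalings and other minimum levels were tried. Python 3.11.15, numpy 2.4.6, pandas 2.3.3 and matplotlib 3.10.9 were used. The log2 difference and the 2-fold count were run on deposited CTR values changed by known folds without noise, which checks those steps alone.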

Additional observations from a re-analysis of the deposited data

How the results depend on the processing

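No paired analysis was possible because replicates are pooled in each value, and for the same reason leaving out a replicate could not be run. Over 81 results, 477 values were recomputed under another setting, of which 392 moved by less than the limit (0.20 for a log2 value, 1.5-fold for a count), 85 moved further, and 0 of the called changes changed sign. Of the member changes, 144 of 189 kept within it. Centring on genes over 100 FPKM left 2 members at least 2-fold lower in CEBPA vs CTR, with 560 genes lower there and 411 lower in CEBPA vs P30, since it moves each change by a constant. A pseudocount of 5, which shrinks low genes, left 0 members higher in P30 vs CTR (HBD at 0.79) and 1 lower in CEBPA vs P30 (HBD at -0.97). Genes higher and lower then numbered 804 and 431 for CEBPA vs CTR, 49 and 19 for P30 vs CTR, and 718 and 343 for CEBPA vs P30. A pseudocount of 0.1 gave 200 higher and 184 lower in P30 vs CTR. A minimum of 5 FPKM, which compares fewer genes, left 1216 genes higher for CEBPA vs CTR, 81 for P30 vs CTR and 1080 for CEBPA vs P30. The alpha to beta locus ratio without AC015691.13 and HBBP1 was 0.578 in CTR, 0.911 in P30 and 0.632 in CEBPA. Summing HBA1 with HBA2, and HBG1 with AC015691.13, and adding HBQ1 to the alpha locus were chosen after seeing the data, and with HBQ1 the alpha locus was at -1.07 in CEBPA vs CTR. Medians close to 0 changed sign with the scaling, as for the other globins in CEBPA vs CTR, at -0.06 as deposited and 0.15 when centred on genes over 100 FPKM. With 1 pooled value per group, the noise of any single difference is unknown, and low levels such as those of HBB and BCL11A in CTR rest on an unknown number of reads.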

Other observations

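At the beta locus, CTD-2643I7.1, listed between HBBP1 and HBG1, was at 10.5 FPKM in CTR, 6.28 FPKM in P30 and 6.47 FPKM in CEBPA, and was singled out after its values were seen. It lay at -0.66 in P30 vs CTR and -0.63 in CEBPA vs CTR on the log2 scale, lower in both lines as HBG1 was, and short of 2-fold. On the far side of AC015691.13, OR51B2 was at 0.873 FPKM in CTR, 1.23 FPKM in P30 and 2.96 FPKM in CEBPA. Cytoglobin (CYGB), a globin outside the 2 loci, was at 2.94 FPKM in CTR, 2.39 FPKM in P30 and 2.77 FPKM in CEBPA.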
